A study of Homo sapiens with 30 samples.

Results

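The aminoacyl-tRNA synthetase genes are the 37 protein-coding genes whose symbols are 1 capital letter followed by ARS, with or without a final 1 or 2, together with EPRS1, FARSA and FARSB. They were picked from 60675 gene rows by symbol alone, and all 37 were abundant enough to be among the 17701 genes tested. Of these, 18 encode cytosolic enzymes, 2 (GARS1 and KARS1) encode enzymes of both the cytosol and the mitochondria, and 17 encode mitochondrial enzymes. The 18 and the 2 are described together below as 20 cytosolic or shared members.

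A synthetase joins its amino acid to the matching tRNAs, and so sets which amino acid a codon brings into a protein. Several of the cytosolic enzymes are held in the multi-synthetase complex by the scaffold proteins AIMP1, AIMP2 and EEF1E1. When amino acids run short or protein folding fails, phosphorylation of eIF2 alpha favours translation of the transcription factor ATF4, which is known to raise the genes of many cytosolic synthetases along with amino acid transporters and serine and asparagine synthesis enzymes.

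RNA was sequenced from A549 cells, an established human lung carcinoma line, cultured for 24 h with the ethanol extract of a tonifying herbal formula or with DMSO. Extracts of Sibjeondaebo-tang and Palmul-tang were given at 20, 100 and 500 µg/mL (low, medium and high) with 3 libraries per dose. Samul-tang was given at the same doses with 2 libraries each, Sagunja-tang with 1 library each, and vehicle had 3 libraries. The vehicle is 0.1% DMSO by the sample labels and 2% by the series text. Palmul-tang is the union of the Samul-tang and Sagunja-tang recipes, to which Sibjeondaebo-tang adds more herbs. All 30 titles carry the same batch letter, but the library codes of the vehicle follow another pattern than those of the extracts. The titles do not say that replicates were separate cultures, so SDs and p-values measure the spread between these libraries.

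Library totals ran from 23986637 to 35159898 expected counts, and log2 CPM of replicate libraries correlated at 0.9899 to 0.993 over the genes tested. KRT8 and KRT18, keratins of epithelial cells, were at 3350 CPM or more and 2268 CPM or more in every library. Of 14 markers of other cell types, 10 stayed below 1 CPM in every library, the T-cell gene CD3E was at 0 in 21 of them, and the exceptions were the lysosomal macrophage marker CD68, DCN, COL1A1 and NKX2-1. In Sibjeondaebo-tang the markers summed to 27.7 to 31.6 CPM at the high dose and 21.7 to 25.8 CPM at the low dose, and without CD68 and DCN to 2.49 to 3.76 CPM at the high dose and 3.58 to 4.09 CPM at the low dose. CD68 itself was higher at the high than at the low dose by 0.60 ± 0.12 (log2 ± SE, edgeR adjusted p = 0.000584). The part of other cells in the results below was not tested, and in bulk RNA fewer cells of a type and less RNA per cell cannot be told apart.

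Values are CPM, expected counts scaled to a common library size by TMM, which sets the typical gene equal between libraries, so every change below is a change relative to the typical gene. Per kilobase of exon and averaged over the groups, AARS1 (alanine) was the most abundant at 53.7 CPM per kb, followed by KARS1 (lysine) at 45.9 and the mitochondrial isoleucine enzyme IARS2 at 42.0. The lowest were the mitochondrial enzymes AARS2 at 2.15, FARS2 (phenylalanine) at 2.51 and WARS2 (tryptophan) at 2.77 CPM per kb. The cytosolic or shared members had a median of 26.4 CPM per kb and the mitochondrial ones 7.18. IARS2 was the most abundant mitochondrial member. These lengths join all annotated exons of a gene, so a gene with many isoforms is set low.

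At the high dose of Sibjeondaebo-tang, transcripts of most cytosolic synthetases were more abundant than at the low dose relative to the typical gene, a direction that turned for 5 of the 20 called members when libraries were scaled by their totals alone. Of the 37 members, 20 rose and none fell (edgeR quasi-likelihood test, Benjamini-Hochberg adjusted p under 0.05 over all genes), and they were 16 of the 20 cytosolic or shared members and 4 of the 17 mitochondrial ones. Over all genes tested 38.4% passed in either direction and 18.5% passed as higher. The median log2 change was 0.12 over the 37 members, 0.21 over the cytosolic or shared ones and 0.08 over the mitochondrial ones, against -0.01 over all genes. The changes were small, the largest being 23.4%.

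How large the rise is depends on the scaling. The TMM factors lowered the effective size of the high-dose libraries, in which the 50 most abundant genes took 30.03% to 31.48% of counts, against 25.99% to 28.59% in the low-dose ones. With library totals alone, an alternative added after the data were seen, the median over all genes became -0.16 and that over the members -0.03. The share of all counts in the 37 genes was 0.3362% ± 0.00482 at the high dose and 0.3347% ± 0.00809 at the low dose (SD, n = 3 each). Under that scaling YARS1, VARS1, KARS1, WARS1 and GARS1 still rose, while LARS1, NARS1, CARS2 and VARS2 fell, to -0.17, -0.15, -0.28 and -0.21. Of the other 15 that rose with TMM, 10 stayed above 0 and 5, EPRS1, HARS1, MARS1 and QARS1 among them, lay below 0, none of them past the threshold. The share of all genes that passed with library totals alone is not given here or below. Counts under that scaling therefore do not show how members or list genes stood against all genes.

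**Figure D1:**
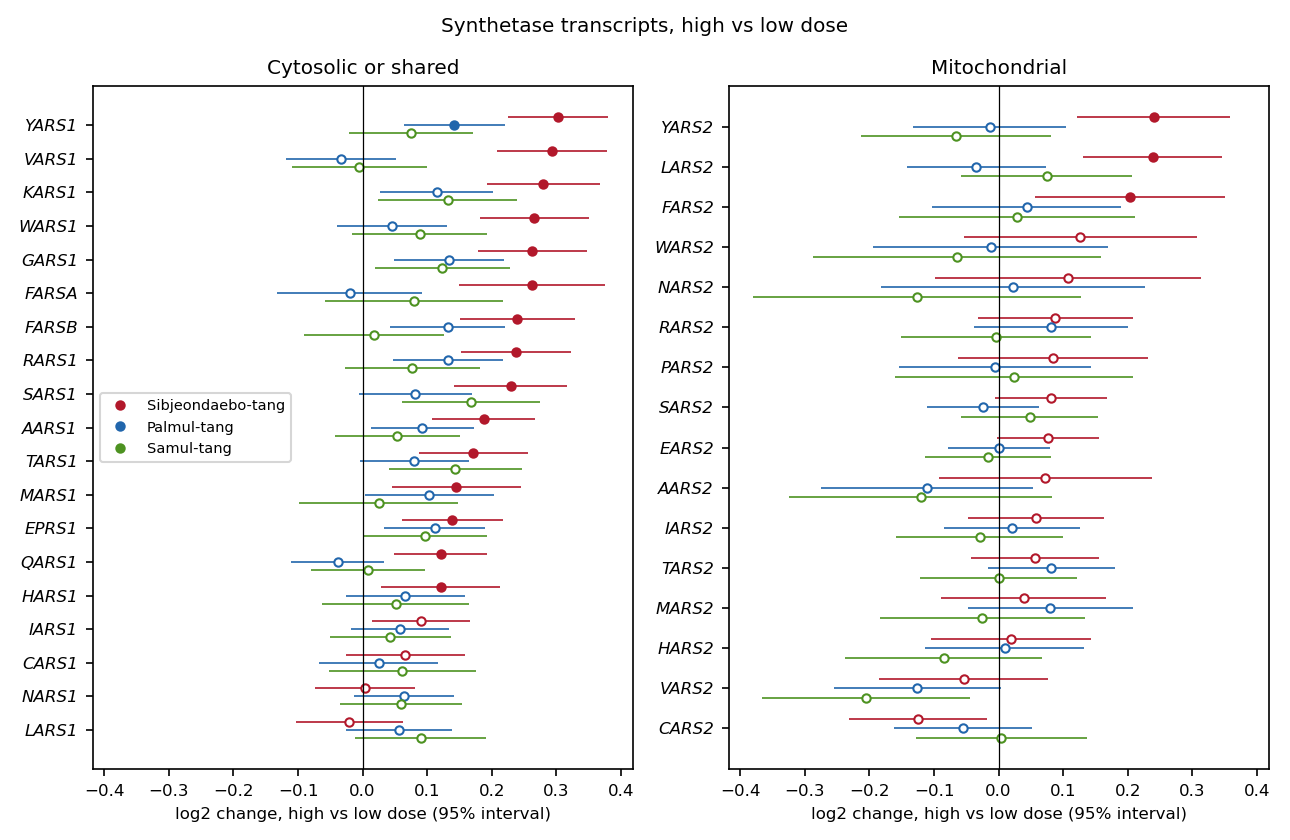
Log2 change of 35 synthetase transcripts at the high against the low dose (x axis, TMM scaling, with 95% interval) in Sibjeondaebo-tang, Palmul-tang and Samul-tang, with cytosolic or shared members left and mitochondrial ones right, ordered by the Sibjeondaebo-tang value. Filled points passed the threshold, 18 of those shown for Sibjeondaebo-tang, 1 for Palmul-tang and none for Samul-tang. With library totals alone EPRS1, HARS1, MARS1 and QARS1 lay below 0 in Sibjeondaebo-tang.

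YARS1, the tyrosine enzyme, had the largest change. Its transcript (ENSG00000134684, GRCh38 chr1:32775237-32818153, minus strand) was at 137.1, 140.6 and 130.5 CPM in the 3 high-dose libraries, against 115.4, 108.5 and 106.9 CPM in the low-dose ones. The groups did not overlap, and the 3 medium-dose libraries, at 121.9, 119.3 and 115.8 CPM, lay between them. The log2 change of high against low was 0.30 ± 0.04 (SE), or 23.4% more, with an edgeR adjusted p of 1.66e-07.

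VARS1, the valine enzyme (ENSG00000204394, chr6:31777518-31795953, minus strand), was at 145.3, 151.2 and 147.6 CPM at the high dose and 121.7, 119.1 and 121.5 CPM at the low dose. The low-dose libraries lay close together and below every high-dose one. The log2 change was 0.29 ± 0.04 (edgeR adjusted p = 1.21e-06), and at the medium dose the gene was at 132.7, 122.6 and 125.9 CPM. Under library totals VARS1 was the 1 member that rose at the high against the medium dose (log2 0.12, edgeR adjusted p = 0.022).

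KARS1, the lysine enzyme of both compartments (ENSG00000065427, chr16:75627474-75648643, minus strand), was at 214.2, 217.6 and 210.5 CPM at the high dose, against 175.3, 183.3 and 170.3 CPM at the low dose. The high-dose libraries were all above the medium-dose ones, which lay between 179.9 and 185.4 CPM. The log2 change was 0.28 ± 0.04 (edgeR adjusted p = 4.44e-06). Its exons share 176 bases with those of TERF2IP on the opposite strand, and those of YARS1 share 396 bases with S100PBP.

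WARS1, the tryptophan enzyme, is a known target of interferon gamma as well as of ATF4. It was at 144.8, 153.8 and 152.2 CPM at the high dose, against 134.0, 124.2 and 116.6 CPM at the low dose (log2 0.27 ± 0.04, edgeR adjusted p = 6.09e-06). The low-dose libraries were more spread than those of VARS1, and they did not reach the high-dose values. GARS1, the glycine enzyme of both compartments, was at 163.3, 173.2 and 169.5 CPM, against 147.3, 141.4 and 132.9 CPM (log2 0.26 ± 0.04, edgeR adjusted p = 7.45e-06). Their medium-dose libraries lay within or just above the low-dose range, at 130.6 to 133.8 CPM for WARS1 and 146.5 to 148.8 CPM for GARS1.

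FARSA and FARSB encode the alpha and beta subunits of the cytosolic phenylalanine enzyme, and both transcripts rose. FARSA was at 82.9, 87.2 and 90.2 CPM at the high dose and 78.7, 70.9 and 67.3 CPM at the low dose (log2 0.26 ± 0.06). FARSB was at 124.0, 126.1 and 117.9 CPM at the high dose and 105.9, 107.2 and 98.4 CPM at the low dose (log2 0.24 ± 0.04). The groups did not overlap for either subunit, and the edgeR adjusted p was 0.000302 for FARSA and 4.84e-05 for FARSB. RARS1, the arginine enzyme, was at 119.0, 117.2 and 118.1 CPM at the high dose and 100.3, 102.0 and 98.2 CPM at the low dose (log2 0.24 ± 0.04, edgeR adjusted p = 3.2e-05). SARS1, the serine enzyme, was at 94.5, 95.9 and 96.6 CPM at the high dose and 87.2, 81.5 and 75.9 CPM at the low dose (log2 0.23 ± 0.04, edgeR adjusted p = 7.23e-05). For both genes every high-dose library was above every low-dose one.

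Smaller rises were called for AARS1 (0.19), TARS1 for threonine (0.17), MARS1 for methionine (0.14), EPRS1 for glutamate and proline (0.14), QARS1 for glutamine (0.12) and HARS1 for histidine (0.12). QARS1 was at 134.2, 140.0 and 141.1 CPM at the high dose and 127.7, 126.7 and 127.4 CPM at the low dose, and the groups did not overlap. Its log2 change was 0.12 ± 0.04 with an edgeR adjusted p of 0.00667, and -0.03 with library totals alone.

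The 4 cytosolic members that did not pass were IARS1 (isoleucine), CARS1 (cysteine), LARS1 (leucine) and NARS1 (asparagine). LARS1 was at 86.5, 88.4 and 84.1 CPM at the high dose, against 84.5, 90.0 and 88.2 CPM at the low dose, and the groups overlapped (log2 -0.02, 95% interval -0.10 to 0.06). NARS1 had 150.9, 151.6 and 161.0 CPM at the high dose and 154.9, 157.3 and 150.1 CPM at the low dose (log2 0.00, 95% interval -0.07 to 0.08). IARS1 came close, at 0.09 with an edgeR adjusted p of 0.0541, and all its high-dose libraries lay above the low-dose ones. All 4 are among the 12 cytosolic members listed as known ATF4 targets, of which 8 rose, while each of the 8 other cytosolic or shared members rose. Of the 8 enzymes of the multi-synthetase complex 6 rose, the exceptions being IARS1 and LARS1.

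**Figure D2:**
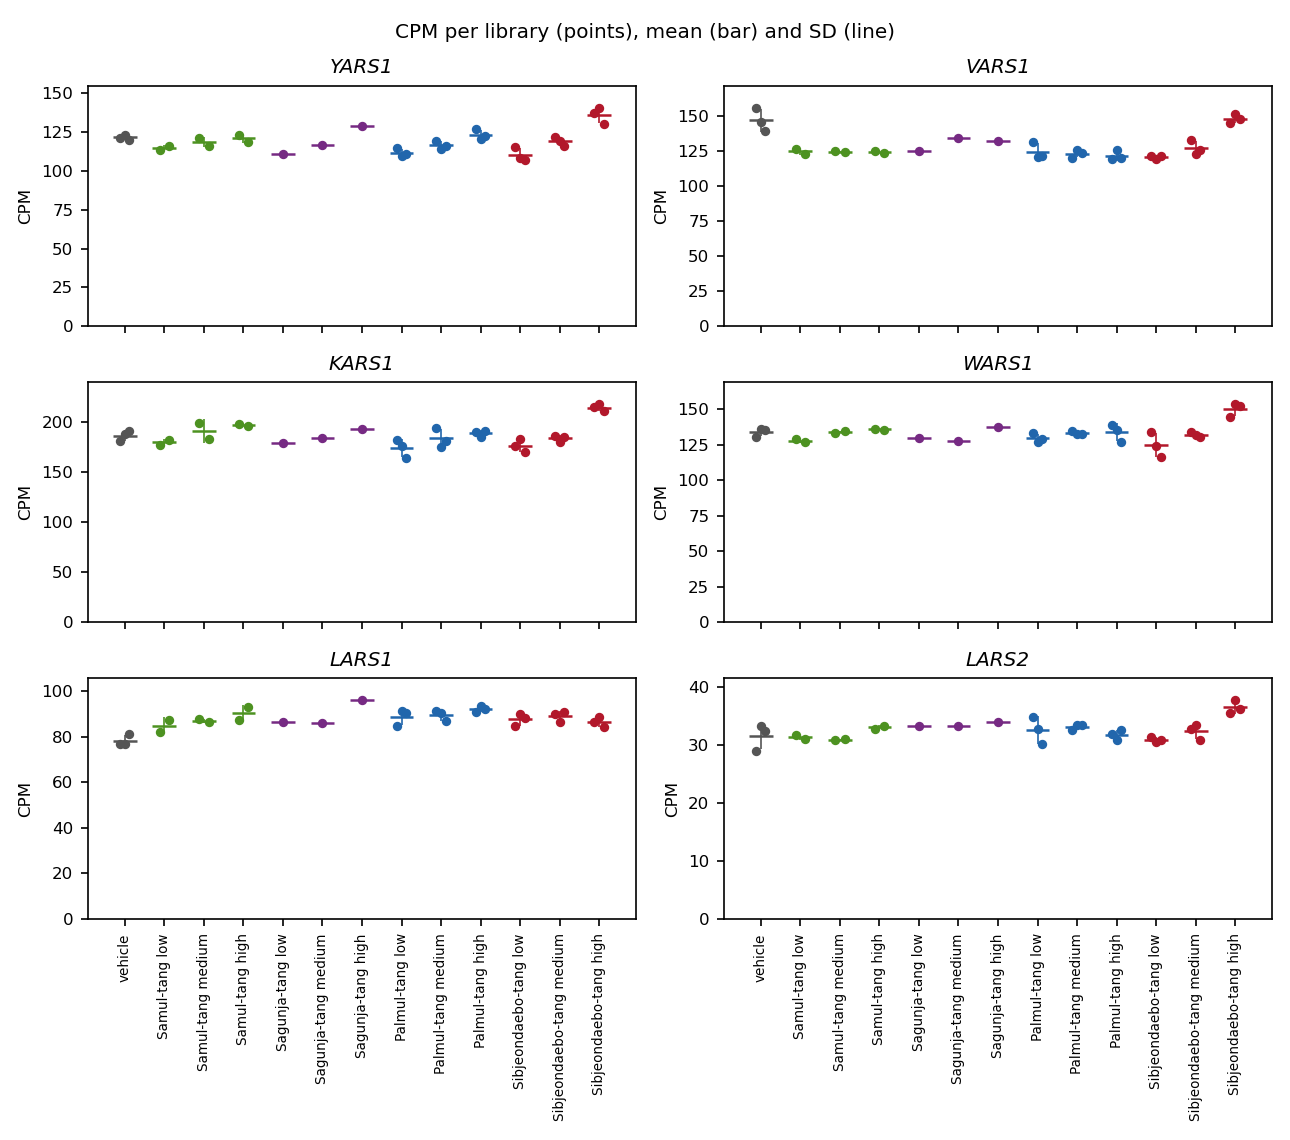
CPM (y axis, from 0) of 6 synthetase transcripts in each of the 30 libraries, by group (x axis), with the group mean as a bar and the SD as a line where there were at least 2 libraries. YARS1, VARS1, KARS1, WARS1 and LARS2 stood highest among the formulas at the high dose of Sibjeondaebo-tang, with 130.5 to 140.6 CPM for YARS1, whereas LARS1 was at 84.1 to 88.4 CPM there and 76.8 to 81.1 CPM in vehicle.

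The mitochondrial members that rose included those for tyrosine, leucine and phenylalanine. YARS2, the mitochondrial tyrosine enzyme, was at 32.9, 30.3 and 30.2 CPM at the high dose and 26.0, 25.4 and 27.7 CPM at the low dose (log2 0.24 ± 0.06, edgeR adjusted p = 0.00129). LARS2, the mitochondrial leucine enzyme, was at 35.5, 37.7 and 36.2 CPM, against 31.3, 30.5 and 30.9 CPM (log2 0.24 ± 0.05, edgeR adjusted p = 0.000512). For both, no high-dose library reached down to a low-dose one. FARS2 was at 12.8, 14.0 and 13.9 CPM at the high dose and 12.1, 10.9 and 12.4 CPM at the low dose (log2 0.20 ± 0.07, edgeR adjusted p = 0.0245). The groups of FARS2 were separated by less than 1 CPM.

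For leucine LARS2 rose and LARS1 was at -0.02, while for tyrosine and phenylalanine the enzymes of both compartments rose; the difference between partners was not tested. For arginine, serine, valine and tryptophan the mitochondrial enzyme did not pass. RARS2 was at 23.2, 23.5 and 23.5 CPM at the high dose and 23.6, 20.7 and 21.9 CPM at the low dose (log2 0.09), and SARS2 at 53.7, 52.7 and 54.1 CPM, against 52.8, 49.3 and 49.5 CPM (0.08). VARS2 was at 24.6, 23.4 and 24.4 CPM at the high dose and 23.7, 25.6 and 25.9 CPM at the low dose (-0.05), and WARS2 at 11.6, 12.2 and 11.6 CPM, against 10.97, 10.5 and 10.9 CPM (0.13). The groups overlapped for RARS2, SARS2 and VARS2 but not for WARS2. Library totals put RARS2, SARS2 and WARS2 at -0.06, -0.07 and -0.03. SARS2 and VARS2 are uncertain, because their exons share bases on the same strand with other protein-coding genes, 1492 for SARS2 and 1858 with GTF2H4 for VARS2. None of the other 9 mitochondrial members passed, with log2 changes between -0.12 for CARS2 (edgeR adjusted p = 0.0603) and 0.11 for NARS2.

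More members passed between the high and the medium dose than between the medium and the low dose. Against the medium dose, 15 members were higher at the high dose and none was lower, where 30.6% of all genes passed and 14.2% passed as higher. They were 12 cytosolic or shared and 3 mitochondrial members, with VARS1 and KARS1 at 0.22 and YARS1 at 0.19. Between the medium and the low dose none of the 37 passed by edgeR or by DESeq2, where 0.0113% of all genes passed. In that comparison 5 members and 1108 of all 17701 genes had an unadjusted edgeR p under 0.05. YARS1 was at 0.11 there with an edgeR adjusted p of 0.626. Library totals turned the first count into 3, with 1 higher and 2 lower.

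**Figure D3:**
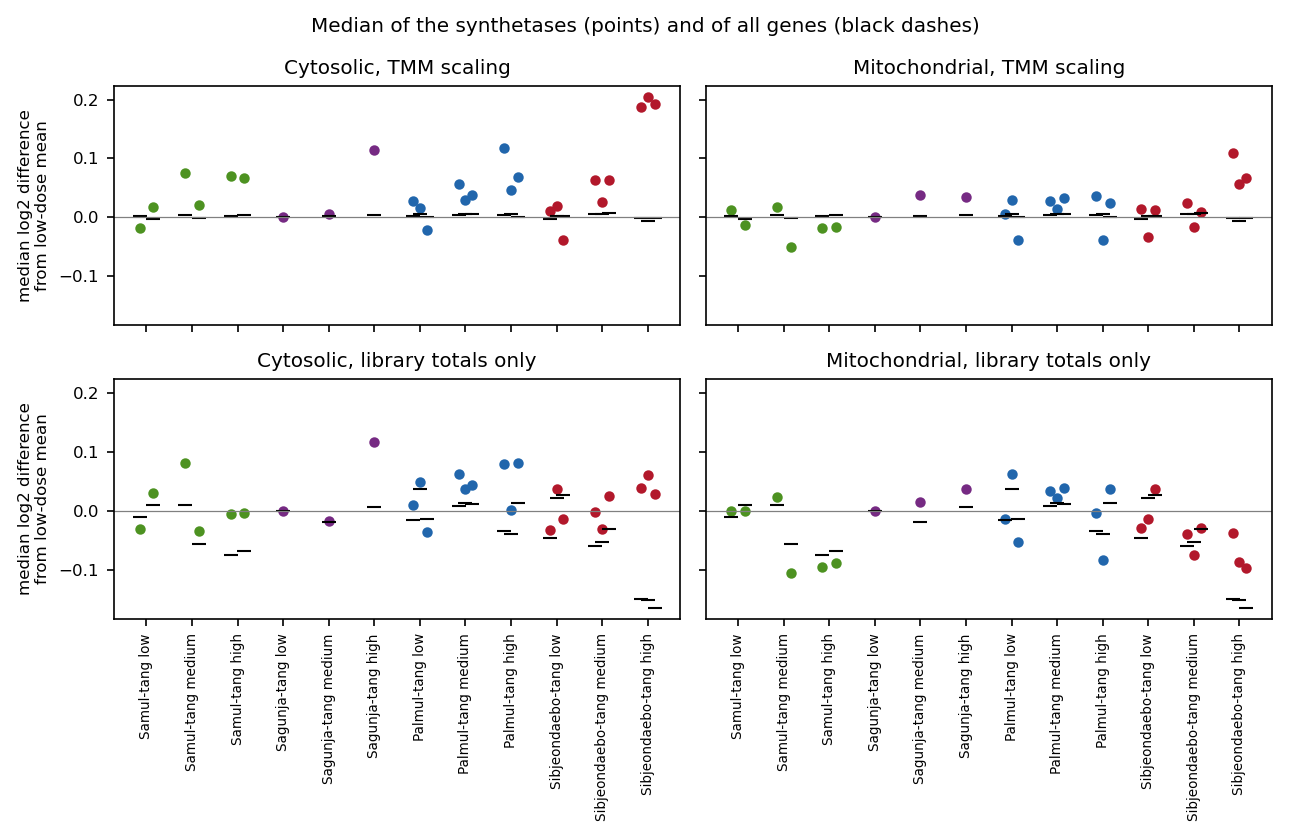
Median log2 difference of each library from its formula's low-dose mean (y axis) over the cytosolic or shared members (left) and the mitochondrial members (right), by formula and dose (x axis), with TMM scaling above and library totals alone below; black dashes give the median of all genes. The cytosolic medians of the 3 high-dose Sibjeondaebo-tang libraries were 0.19 to 0.20 with TMM and 0.03 to 0.06 with totals alone, where the all-gene medians were -0.16 to -0.15.

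Promoter sequence was read for the members from the RefSeq table for GRCh38.p14, which covers 250 bases before to 50 after a start site and had 39 entries for 30 of the 37 genes. The core of the C/EBP-ATF response element, through which ATF4 is known to act, was searched as TGATGNAA on both strands. It occurred in 8 of the 39 entries (20.51%) and in 3.62% of the 35093 entries of all genes. The 8 genes were AARS1, CARS1, GARS1, IARS1, MARS1, NARS1, TARS1 and YARS2, of which 5 rose with Sibjeondaebo-tang and CARS1, IARS1 and NARS1 did not pass. Of the 22 members with an entry but no match, 11 rose. YARS1 and VARS1 were among the 7 members without an entry and could not be searched. The gamma-activated site, searched as TTCNNNGAA, was in 17.95% of the members' entries and 7.66% of all, and a WARS1 entry held it at -142 to -134 from the start. A match is a run of letters and not a measured binding site. The 250 bases before the start are shown for the 4 genes with the whole first motif there, 3 that rose and IARS1 that did not pass, with the motif in capitals. It lies at -187 to -180 in AARS1 (chr16:70289507-70289756, minus strand), -33 to -26 in GARS1 (chr7:30594628-30594877, plus strand), -197 to -190 in YARS2 (chr12:32755898-32756147, minus strand) and -13 to -6 in IARS1 (chr9:92293698-92293947, minus strand).
AARS1: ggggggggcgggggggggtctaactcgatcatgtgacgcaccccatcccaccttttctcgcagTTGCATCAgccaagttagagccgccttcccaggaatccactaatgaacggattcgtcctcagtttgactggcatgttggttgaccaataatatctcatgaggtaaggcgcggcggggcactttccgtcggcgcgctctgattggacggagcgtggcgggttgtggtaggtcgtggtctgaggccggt
GARS1: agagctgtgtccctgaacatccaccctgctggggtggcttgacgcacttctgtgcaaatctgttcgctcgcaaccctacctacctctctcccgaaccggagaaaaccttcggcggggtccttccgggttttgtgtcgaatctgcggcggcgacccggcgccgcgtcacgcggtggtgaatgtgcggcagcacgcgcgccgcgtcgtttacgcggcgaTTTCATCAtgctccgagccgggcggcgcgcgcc
YARS2: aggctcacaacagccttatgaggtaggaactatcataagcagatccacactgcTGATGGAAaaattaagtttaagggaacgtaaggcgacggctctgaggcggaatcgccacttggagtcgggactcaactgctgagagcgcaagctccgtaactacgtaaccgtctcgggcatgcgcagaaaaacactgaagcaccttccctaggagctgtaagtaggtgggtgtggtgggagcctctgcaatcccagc
IARS1: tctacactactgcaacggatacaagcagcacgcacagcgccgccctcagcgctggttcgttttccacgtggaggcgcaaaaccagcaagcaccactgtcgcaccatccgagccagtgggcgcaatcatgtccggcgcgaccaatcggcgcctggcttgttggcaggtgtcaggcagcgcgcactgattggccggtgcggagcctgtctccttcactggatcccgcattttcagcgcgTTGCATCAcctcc

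In Palmul-tang, 1 member passed between the high and the low dose. YARS1 was at 126.7, 120.7 and 122.7 CPM at the high dose and 114.5, 109.9 and 111.0 CPM at the low dose, with no overlap (log2 0.14 ± 0.04, edgeR adjusted p = 0.028). Over all genes 3.47% passed, 1.46% as higher. YARS1 lost the call in 4 of the 6 fits that left out 1 library of these groups: high-dose replicate 1 or 3 or low-dose replicate 2 or 3, each with 0 members passing. The count was 2 without high-dose replicate 2 and 2 with DESeq2, and it was 0 without a filter on low counts, with the compared groups alone in the fit and with library totals alone. GARS1, RARS1 and FARSB followed at 0.13 each with edgeR adjusted p of 0.0689, 0.0744 and 0.0947. An unadjusted edgeR p under 0.05 was held by 8 members and by 2492 of all 17701 genes. The cytosolic or shared median was 0.07 and the mitochondrial one 0.00, where the all-gene median was 0.0035. Each of the 12 known ATF4 targets had a positive value, as did 5 of the 8 other cytosolic or shared members. With library totals alone the 12 were positive too, among 17 of all 20 cytosolic or shared members. Between its high and medium doses none of the 37 passed by edgeR or by DESeq2, where 0.859% of all genes passed. There 3 members and 1391 of all 17701 genes had an unadjusted edgeR p under 0.05.

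In Samul-tang none of the members passed between the high and the low dose by edgeR or by DESeq2, where 1.34% of all genes passed. An unadjusted edgeR p under 0.05 was held by 6 of the 37 members and by 2456 of all 17701 genes. With 2 libraries per dose, SARS1 came closest, at 94.7 and 92.1 CPM at the high dose and 82.1 and 84.2 CPM at the low dose (log2 0.17 ± 0.05, edgeR adjusted p = 0.107). Its groups did not overlap. YARS1 was at 123.0 and 118.7 CPM at the high dose and 113.5 and 115.9 CPM at the low dose (edgeR adjusted p = 0.509). The 12 known ATF4 targets had positive values with Samul-tang too, as did 6 of the 8 other cytosolic or shared members, where the all-gene median was -0.0021. With library totals alone 7 of the 12 were positive, and 10 of all 20 cytosolic or shared members. The lowest value was that of VARS2, at -0.21 with an edgeR adjusted p of 0.213.

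Sagunja-tang had 1 library per dose, so its differences have no replicate check. The high-dose library was above the low-dose one for 33 of the 37 members, for all 20 cytosolic or shared ones by 0.00 to 0.22 on the log2 scale and for 13 of the 17 mitochondrial ones. Over the members the median difference was 0.08, at 0.11 over the cytosolic or shared ones and 0.03 over the mitochondrial ones. Over all genes the median difference was 0.00. MARS1 differed most, at 160.1 CPM at the high and 137.3 CPM at the low dose, followed by YARS1 at 128.7 and 110.6 CPM and AARS1 at 270.9 and 236.7 CPM. LARS1, which did not pass in Sibjeondaebo-tang, was at 96.0 and 86.3 CPM. Library totals alone gave a median of 0.09 over the members and 0.01 over all genes.

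Set side by side at the high dose, 11 members were higher with Sibjeondaebo-tang than with Palmul-tang and none was lower, where 30.3% of all genes passed and 14.3% passed as higher. Among them were VARS1, QARS1, KARS1, WARS1, LARS2, FARSA, YARS1, YARS2, EARS2 (mitochondrial glutamate) and AARS1. VARS1 differed most, at 145.3, 151.2 and 147.6 CPM with Sibjeondaebo-tang and 119.5, 125.8 and 120.0 CPM with Palmul-tang (log2 0.28 ± 0.04, edgeR adjusted p = 4e-06). QARS1 was at 134.2 to 141.1 CPM with Sibjeondaebo-tang, against 121.6 to 126.3 CPM with Palmul-tang (log2 0.16 ± 0.04, edgeR adjusted p = 0.00093). KARS1 was at 210.5 to 217.6 CPM, against 184.6 to 190.7 CPM (log2 0.18 ± 0.04, edgeR adjusted p = 0.00137). No library of one formula reached into the range of the other for these genes. Under library totals VARS1 stayed higher, at 0.17, while LARS1, NARS1 and TARS2 were lower, and AARS1 and EARS2 lay at -0.01.

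The difference between the formulas was also tested as a difference of dose responses, the high against low change with Sibjeondaebo-tang minus that with Palmul-tang. Of the 37 members 7 passed, all with the larger value in Sibjeondaebo-tang, where 14.9% of all genes passed and 5.59% passed in that direction. VARS1 was at 0.29 with Sibjeondaebo-tang and -0.03 with Palmul-tang, a difference of 0.33 ± 0.06 (edgeR adjusted p = 0.000191). WARS1 was at 0.27 with Sibjeondaebo-tang and 0.05 with Palmul-tang (difference 0.22 ± 0.06, edgeR adjusted p = 0.00953). FARSA, LARS2, YARS2 and QARS1 rose in Sibjeondaebo-tang and had values of -0.02, -0.03, -0.01 and -0.04 in Palmul-tang. YARS1 rose in both and by more in Sibjeondaebo-tang, with a difference of 0.16 ± 0.05 (edgeR adjusted p = 0.0419). The count was 3 without the first low-dose library of Palmul-tang, and 3 with library totals alone, where VARS1 remained higher and LARS1 and NARS1 were lower.

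Compared with vehicle, members lay on both sides. With the high dose of Sibjeondaebo-tang 20 members were higher and 3 lower, where 41.8% of all genes passed, 3543 higher and 3852 lower. With the high dose of Palmul-tang the counts were 10 and 6, where 37.1% of all genes passed, 3366 higher and 3208 lower. With that of Samul-tang they were 8 and 6, where 29.2% of all genes passed, 2704 higher and 2462 lower. The low doses of these 3 formulas together, compared with vehicle, already had 8 members higher and 8 lower, where 42.6% of all genes passed. Among all genes 3779 were higher and 3753 lower there. These comparisons share the vehicle libraries. Library totals gave counts of 9 and 6 for Sibjeondaebo-tang, and the sum for Samul-tang was 8 without its high-dose replicate 3.

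At the low doses the members that were higher than in vehicle included EPRS1, IARS1, RARS1, NARS1, LARS1, IARS2 and YARS2, and those lower were VARS1, FARSA, SARS2, AARS2, QARS1, YARS1, SARS1 and CARS2. NARS1 was at 145.6 to 157.3 CPM in the low-dose libraries of the 3 formulas, against 129.1, 127.8 and 130.0 CPM in vehicle (log2 0.24 ± 0.03, edgeR adjusted p = 2.96e-07). VARS1 was at 119.1 to 131.8 CPM in those libraries, against 155.9, 145.6 and 139.4 CPM in vehicle (log2 -0.25 ± 0.03, edgeR adjusted p = 4.39e-07). For VARS1 the 145.3 to 151.2 CPM at the high dose of Sibjeondaebo-tang lay within the vehicle range.

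The differences from vehicle ran with the GC content of the transcripts. The 8 members that were higher had 41.4% to 49.9% GC in their longest coding transcript and the 8 that were lower had 51.5% to 62.6%. Across all genes Spearman's rho of GC and the log2 change was -0.618, and it was -0.784 over the 37 members (as a description, since genes of one set of libraries are not independent). For the high doses against vehicle the all-gene values were -0.371 for Sibjeondaebo-tang, -0.599 for Palmul-tang and -0.531 for Samul-tang. Between the high and the low dose of Sibjeondaebo-tang it was 0.139, and -0.003 over the members. There the members' median stood 0.15 above that of genes of like GC, and 35 of the 37 were above their own bin. Between the formulas at the high dose rho was 0.159 over all genes and 0.301 over the members. For the difference of dose responses it was 0.159 and 0.298, and for Sibjeondaebo-tang high against medium 0.168 and 0.249. The part of GC content in any of these differences was not tested. In the differences from vehicle, extract and library code cannot be told apart.

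**Figure D4:**
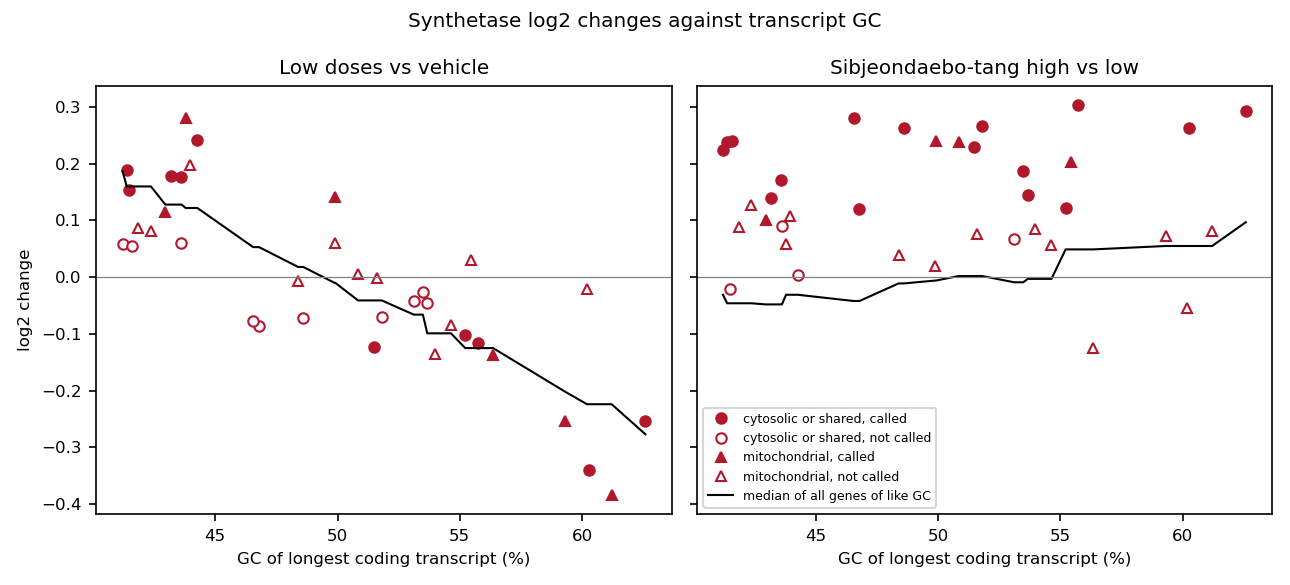
Log2 change of the 37 synthetase transcripts (y axis, TMM scaling) against the GC content of the longest coding transcript (x axis, percent), for the low doses of 3 formulas against vehicle (left) and for the high against the low dose of Sibjeondaebo-tang (right); circles are cytosolic or shared, triangles mitochondrial, filled points passed the threshold and the line is the median of all genes of like GC. The left panel falls with GC (rho -0.784 over the members) and the right one does not (-0.003).

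Other genes of tRNA charging and of the amino acid response were counted in the same comparison of high against low Sibjeondaebo-tang. In it 38.4% of all genes passed and 18.5% passed as higher. Under library totals a change is relative to the total count. The all-gene medians of the high-dose libraries were -0.16 to -0.15 there, so a fall of about that size is no fall against the typical gene. Of the 3 scaffold genes of the multi-synthetase complex AIMP2 rose by 0.26 and EEF1E1 by 0.20, and AIMP1 was at 0.04; none of the 3 passed under library totals. Of 10 elongation factors, which bring charged tRNAs to the ribosome or move it on, 8 rose and none fell (median 0.22), with EEF1A2 at 0.76, the mitochondrial TUFM at 0.29, EEF2 at 0.29 and EEF1G at 0.27; library totals gave 4 and 1. Of 6 genes that edit mischarged tRNAs or release peptidyl tRNAs 3 rose, among them DTD1, a deacylase of D-aminoacyl tRNAs, at 0.33, and under library totals 1 rose and 1 fell. Of 13 genes of tRNA end processing and export 5 rose and 1 fell, and with library totals alone 0 rose and 2 fell. Of 4 genes that form mitochondrial glutaminyl tRNA by amidation or formylate the initiator, none passed by edgeR and none had an unadjusted p under 0.05. Under library totals 2 of them fell.

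Of 27 genes of the ATF4 amino acid response 14 rose and 2 (NUPR1 and ALDH1L2) fell, with a median of 0.19. Over all genes 38.4% passed, 18.5% as higher. ASNS, the asparagine synthetase, was at 48.9 ± 1.89 CPM at the high dose and 33.9 ± 1.18 CPM at the low dose (SD, n = 3 each; log2 0.53 ± 0.05 SE, edgeR adjusted p = 3.61e-09). PHGDH, the first enzyme of serine synthesis, rose by 0.49, SHMT2 by 0.30 and PYCR1, which makes proline, by 0.36. ATF4 itself rose by 0.16 (edgeR adjusted p = 0.00365). Library totals gave 7 and 4. In Palmul-tang 5 of the 27 rose and 1 fell, where 3.47% of all genes passed, and ASNS was among the 5 at 0.36. In Samul-tang 2 rose, where 1.34% of all genes passed.

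Of 8 amino acid transporters of that response 6 rose and SLC38A2 fell, where 38.4% of all genes passed and 18.5% passed as higher. The same shares stand beside the other counts of high against low in this paragraph. SLC7A5, which brings in large neutral amino acids, rose by 0.65 (edgeR adjusted p = 6.64e-13), SLC3A2, its partner chain, by 0.52, and SLC1A5 and SLC1A4 by 0.43 and 0.44, and under library totals 4 rose and 1 fell. These are larger log2 changes than those of any synthetase. Of 7 genes for eIF2 alpha kinases and phosphatase subunits, EIF2AK2 fell by 0.28 and none rose, and under library totals 4 fell. Their median under library totals was -0.14, near the all-gene medians of the high-dose libraries (-0.16 to -0.15). Of 9 interferon gamma response genes tested out of 11, 4 rose and none fell, with PSMB8, an immunoproteasome subunit, at 0.28, and under library totals 1 rose and 1 fell. Of 5 genes of selenocysteine incorporation EEFSEC rose and SECISBP2 and SEPSECS fell, against 0 higher and 2 lower under library totals. Of 9 epithelial markers 5 rose and 2 fell, and under library totals none rose and 2 fell. In the low doses against vehicle, 2 of the 8 transporters were higher and 5 lower, where 42.6% of all genes passed. Of the 27 ATF4 response genes 4 were higher and 12 lower there. With the high dose of Sibjeondaebo-tang against vehicle the counts were 6 and 0, and 11 and 3, where 41.8% of all genes passed. Extract and library code cannot be told apart in these comparisons.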

How the data were processed

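Per the submitters' processing notes, the tools were FastQC 0.11.9, Trim Galore 0.6.5, the aligner STAR 2.7.3a and the quantifier RSEM 1.3.3, with the build GRCh38. Which annotation and strand setting RSEM used is not given in the sources used here. The library kit keeps strand, per the labels' protocols. The authors deposited RSEM expected counts per gene, in which shared reads are divided; 8.5% to 9.82% of a library's values were fractional and all were rounded. The table holds 240 columns of other samples, which were not used. Exons of 18 members lie opposite exons of another gene and 3 share bases with a protein-coding gene on the same strand.

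Symbols were found for 56558 of 60675 IDs; positions, exon lengths and GC content are from GENCODE 29 (GRCh38), in which 57055 IDs were found. Genes were kept with filterByExpr by group, scaled with TMM (factors 0.923 to 1.0515) and tested in R 4.3.3 by the quasi-likelihood method of edgeR 4.0.16 (robust glmQLFit, then glmQLFTest; one mean per group over all 30 libraries, 17 residual degrees of freedom, biological coefficient of variation 0.0496). P-values were adjusted over all 17701 genes at 0.05, and a difference that passed is written as a rise or fall. The low doses against vehicle average the low doses of the 3 replicated formulas. Totals of 23986637 to 35159898 counts set the counting error; the SD over libraries gives the precision.

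The members, the 12 lists with 117 genes (107 tested) and the naming rule were chosen with earlier results of these data known. By that rule the text describes the members with the 8 smallest adjusted p, and the 4 largest rises and falls past the threshold, in Sibjeondaebo-tang high against low. It adds those past the threshold between doses of Palmul-tang or Samul-tang, between the formulas at the high dose and in the difference of dose responses (up to 6 each), with their partners in the other compartment. AARS1, WARS1 and members of the multi-synthetase complex may be named for contrast; NARS1, CARS1, CARS2, EARS2, TARS1, TARS2, HARS1, NARS2, IARS2 and AARS2 were named after their values were seen. From each list up to 4 genes with the smallest adjusted p were named, and 1 list gene and 2 members are counted but not reported here by name; ATF4, NUPR1, ALDH1L2 and SLC38A2 were named after their values were seen.

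Alternatives were RLE factors, no filter, DESeq2 1.42.0, fits to the compared groups alone or without the vehicle or the high dose of Sibjeondaebo-tang, a replicate block and leaving out each library. A further scaling, by library totals alone, was chosen after seeing the data. Recovery of known changes was checked on simulated data in which few genes were changed, both up and down. That check cannot address the choice between TMM and library totals.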

Additional observations from a re-analysis of the deposited data

Results flagged for a closer look

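The dose response of 7 synthetase transcripts differed between Sibjeondaebo-tang and Palmul-tang by a test of the difference itself (high minus low dose, first formula minus second, edgeR with adjustment over all genes, TMM scaling, n = 3 libraries per group). They were 18.9% of the 37 members, where 14.9% of all genes passed and 5.59% passed in that direction. On the log2 scale the difference was 0.3272 for VARS1, 0.2823 for FARSA, 0.2738 for LARS2, 0.2544 for YARS2, 0.2205 for WARS1, 0.1604 for YARS1 and 0.1597 for QARS1. YARS1 rose in both formulas and by more in Sibjeondaebo-tang, while the other 6 passed between doses in Sibjeondaebo-tang and did not in Palmul-tang. The Palmul-tang call of YARS1 was lost in most fits that left out a library of its compared groups. It was also lost with library totals alone (edgeR adjusted p = 0.124). With library totals alone VARS1 remained past the threshold, at 0.1985, and the other 6 stayed above 0 without passing. For VARS1 the first low-dose library of Palmul-tang was at 131.8 CPM, against 120.5 and 121.6 CPM in the others of that group. Without that library 3 of the 37 members passed. The 7 members that passed in the main fit had 49.9% to 62.6% GC (median 55.2%), against a median of 47.6% in the members that did not. The part of GC content was not tested.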

How the results depend on the processing

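With RLE factors, no filter, DESeq2 and fits to the compared groups alone, or leaving the vehicle or high-dose Sibjeondaebo-tang out of the fit, each count of members past the threshold stayed within 1.5 times its main value, except that of Palmul-tang high against low (1), which was 0 without a filter, 2 with DESeq2 and 0 with the compared groups alone. Scaling by library totals alone, added after the data were seen, gave 9 members for Sibjeondaebo-tang high against low (20), 0 for Palmul-tang (1), 3 for Sibjeondaebo-tang high against medium (15), 4 for Sibjeondaebo-tang against Palmul-tang at the high dose (11), 3 for the difference of dose responses (7) and 15 for Sibjeondaebo-tang high against vehicle (23). It moved the median of all genes in Sibjeondaebo-tang high against low to -0.1622. For the alternatives in this section the share of all genes that passed in the same fit is not given. These counts show how far the main counts moved, and not how the members stood against all genes.

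Single-gene values under alternatives numbered 427, of which 382 kept their direction and side of the threshold, 35 lost the call, 3 gained it and 7 reversed. The reversals in Sibjeondaebo-tang high against low were, with library totals, QARS1 at -0.0311, RARS2 at -0.0632, SARS2 at -0.0703 and WARS2 at -0.0254, and, leaving out single libraries, LARS1 at 0.0028 without high-dose replicate 1 or low-dose replicate 2 and 0.0219 without high-dose replicate 3; its values without single libraries ran from -0.0418 to 0.0219. The cause was not tested, beyond the shift of the median of all genes.

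Leaving out each library in turn gave 18 to 21 for Sibjeondaebo-tang high against low, 12 to 16 for high against medium, 0 to 2 for Palmul-tang high against low, 8 to 14 for Sibjeondaebo-tang against Palmul-tang, 3 to 8 for the difference of dose responses, and, against vehicle, 22 to 23, 15 to 17, 8 to 14 and 14 to 19 for Sibjeondaebo-tang, Palmul-tang, Samul-tang and the low doses. The 8 for Samul-tang came without high-dose replicate 3, which leaves 1 library that is assumed to vary like the other groups. The counts of 0 stayed 0.

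Replicate numbers were checked as pairs: deviations from the group mean of same-numbered libraries correlated at a median of 0.006 over 111 pairs (-0.122 to 0.089), against -0.148 to 0.137 for other pairs, so the libraries share only a number. With the replicate block the counts were 20 for Sibjeondaebo-tang high against low, 3 for Palmul-tang, 0 for Samul-tang, 16 for Sibjeondaebo-tang high against medium, 12 between the formulas, 7 for the difference of dose responses and 23, 16, 15 and 16 against vehicle.

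Limits are the 2 libraries per dose of Samul-tang and 1 of Sagunja-tang, changes mostly below 0.3 on the log2 scale, and a vehicle whose library codes differ from those of the extracts.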
